A study of Mus musculus with 32 samples.

Results

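The genes described here are 9 components of epithelial cell junctions, out of 35458 genes in the 32 libraries of this study of mouse parathyroid gland cells. They are the claudins Cldn1, Cldn3, Cldn4, Cldn6 and Cldn7, the tight junction genes Ocln and Tjp1, the E-cadherin gene Cdh1, and Epcam. The set was chosen as tight and adherens junction genes around Cldn4, whose level in 1 of the 8 experiments had already been seen in these data, and each was quantified by summing the reads of its Ensembl transcripts. Each library was prepared with a SMART-Seq HT kit from 10 to 20 cells that glowed red from a tdTomato reporter in the parathyroid hormone gene Pth and were picked by hand with a micromanipulator. The 8 experiments hold 4 biological replicates each. The labels do not tie replicates to animals, so a p-value here reflects only how these samples spread, in part perhaps for technical reasons.

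Control cells came from the strain C57BL/6-Pthtm1(P2A-tdTomato)/+, in experiment 1 from males aged 8 weeks and in experiment 2 from females aged 11 weeks. The 4 mouse-host experiments sampled parathyroid cells that grew from Pth-tdTomato mouse embryonic stem cells (ESC) in Gcm2-/- mice on a BDF1B6 background. Those mice were 9 weeks old and labelled female in experiments 1 to 3 and male in experiment 4. Gcm2 is the transcription factor without which parathyroid glands do not form, so the host lacks parathyroid cells of its own and the ESC supply them. The rat-host experiment used the same kind of ESC in Gcm2-/- Wistar rats and sampled neonates of unknown sex. The graft experiment sampled ESC-derived parathyroid cells that had been grafted, taken from Gcm2-/- mice, labelled male and 12 weeks old. The labels do not say whether a sex describes the host or the donor cells. Host species and age change together in the rat host and cannot be told apart, and the rat host and the graft are 1 experiment each.

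Epithelial cells are held together by tight junctions at the apical end of the lateral membrane and by adherens junctions just below. Claudins are small membrane proteins with 4 transmembrane segments that polymerise into tight junction strands, and the mix of claudins sets which ions and solutes pass between cells. Occludin (Ocln) lies in the same strands and ZO-1 (Tjp1) ties them to actin from the cytoplasmic side. E-cadherin (Cdh1) joins neighbouring cells in adherens junctions through the catenins, and Epcam is a surface adhesion protein that binds and stabilises claudin-7. Parathyroid chief cells are epithelial cells of endodermal pharyngeal pouch origin, arranged in cords, and release hormone into blood rather than across a lumen.

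Cldn4 and its closest neighbour in the genome, Cldn3, are the pair on which the comparison of paralogs turns, so the 250 bases before their start sites are shown. No gene lies between them on mouse chromosome 5 in RefSeq GRCm38.p6, and they face opposite ways. The Cldn4 window is chr5:134946935-134947184 on the minus strand and the Cldn3 window is chr5:134985964-134986213 on the plus strand, both 5′ to 3′ on the gene's strand and ending at the base before the annotated start. Capitals mark matches, on either strand, to 5 motifs: TGANTCA (AP-1), GGGCGG (GC box), CAGGTG (an E-box read by Snail and Zeb proteins), AACNGGTT (Grainyhead) and TATAAA.
Cldn4: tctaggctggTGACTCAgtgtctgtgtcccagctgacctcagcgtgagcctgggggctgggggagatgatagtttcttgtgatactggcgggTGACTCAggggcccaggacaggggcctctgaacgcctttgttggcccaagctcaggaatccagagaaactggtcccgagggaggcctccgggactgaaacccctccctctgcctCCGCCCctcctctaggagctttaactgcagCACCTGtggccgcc
Cldn3: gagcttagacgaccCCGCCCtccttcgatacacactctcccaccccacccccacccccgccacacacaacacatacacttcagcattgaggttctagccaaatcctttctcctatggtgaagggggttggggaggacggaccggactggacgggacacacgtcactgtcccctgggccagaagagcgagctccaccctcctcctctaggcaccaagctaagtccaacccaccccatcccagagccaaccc

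The Cldn4 window held 4 matches and the Cldn3 window 1. In Cldn4 the 2 AP-1 matches began 240 and 158 bases before the start, the GC box 44 bases before it and the E-box, as CACCTG, 14 bases before it. The only match in Cldn3 was a GC box 236 bases before the start. Among 32851 promoters of the same length, 6.75% held TGANTCA, 32.7% GGGCGG, 17.2% CAGGTG, 1.79% AACNGGTT and 12.4% TATAAA. RefSeq promoters were found for 8 of the 9 members, with 10 start sites in all, and no other member's window held TGANTCA. No window of a member held AACNGGTT or TATAAA. A match describes letters in this window and is not evidence of binding.

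Libraries of control experiment 1 held 29471254 to 32264864 reads and all others 9470744 to 15098391, with 11566 to 13445 genes read. Gcm2, the gene deleted in the hosts but intact in the donor cells, was read in all 32 libraries at 494.61 to 1477 CPM (reads per 1000000, scaled over the 32 libraries with edgeR's TMM factors). Parathyroid identity was checked on 14 markers: Pth ranged from 42174 to 136845 CPM and Casr, the calcium-sensing receptor, from 272 to 932 CPM, while Ret and Rgs5 had no read outside the rat host and reached 4.92 and 0.0707 CPM in it. In the rat host the summed markers of the macrophage and adipocyte lists were 0, and 7 of 8 thyroid follicular markers had no read. For airway and pharyngeal lining, the same 7 of 8 markers had no read there or in any other experiment. Their list summed to a mean of 1.20 CPM in the rat host and 0.406 CPM in the other 28 libraries. Lower levels of a gene in these pooled cells can mean fewer cells with the RNA or less RNA per cell, which cannot be told apart.

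Cldn4 encodes a sealing claudin and was low in every experiment but 1. In control experiment 1 the 4 libraries held 6.14, 8.59, 17.2 and 4.45 CPM, and in control experiment 2 they held 2.97, 9.20, 2.12 and 3.02 CPM. Mouse-host libraries held 16.6, 0, 19.4 and 11.7 CPM in experiment 1, 16.2, 4.87, 1.38 and 15.9 CPM in experiment 2, 5.49, 0, 9.27 and 6.56 CPM in experiment 3, and 2.37, 5.10, 5.94 and 4.06 CPM in experiment 4. Within mouse-host experiment 1 alone the libraries spanned the whole range seen outside the rat host, and 2 mouse-host libraries had no Cldn4 read, so it was not detectable there at this depth. Graft libraries held 0.637, 18.8, 11.8 and 13.9 CPM. The 4 rat-host libraries held 125, 113, 71.2 and 49.8 CPM (1719, 1603, 970 and 738 reads). All 4 lay above the highest of the other 28 libraries, 19.4 CPM.

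The rat-host mean for Cldn4 was 89.9 ± 35.4 CPM (SD, n = 4). It was 11.5-fold the mean of the mouse-host experiments, 7.80 CPM, and 13.4-fold the control mean, 6.72 CPM. As a difference of mean log2(CPM + 1), rat host minus mouse host was 3.75, with an SD of 0.61 among rat-host and 1.36 among mouse-host libraries. This is the contrast on which the genes were chosen, so the values are a description and no p is given for any member. In CPM, across all 15698 genes tested, 1.65% had all 4 rat-host libraries above the 16 mouse-host libraries and 1.37% had all 4 below them. Among the 9 members these counts were 2, Cldn4 and Cdh1, and 0, but Cldn4 was chosen for its rat-host level, so the count is no test. By the edgeR call across all genes, 0.643% were called in this contrast, 0.217% higher and 0.427% lower. Calls of single members are not read here, because the set was built around Cldn4 with its rat-host level known. Across all genes, 1.08% had rat-host libraries above all 28 others, and the same 2 members did.

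**Figure D1:**
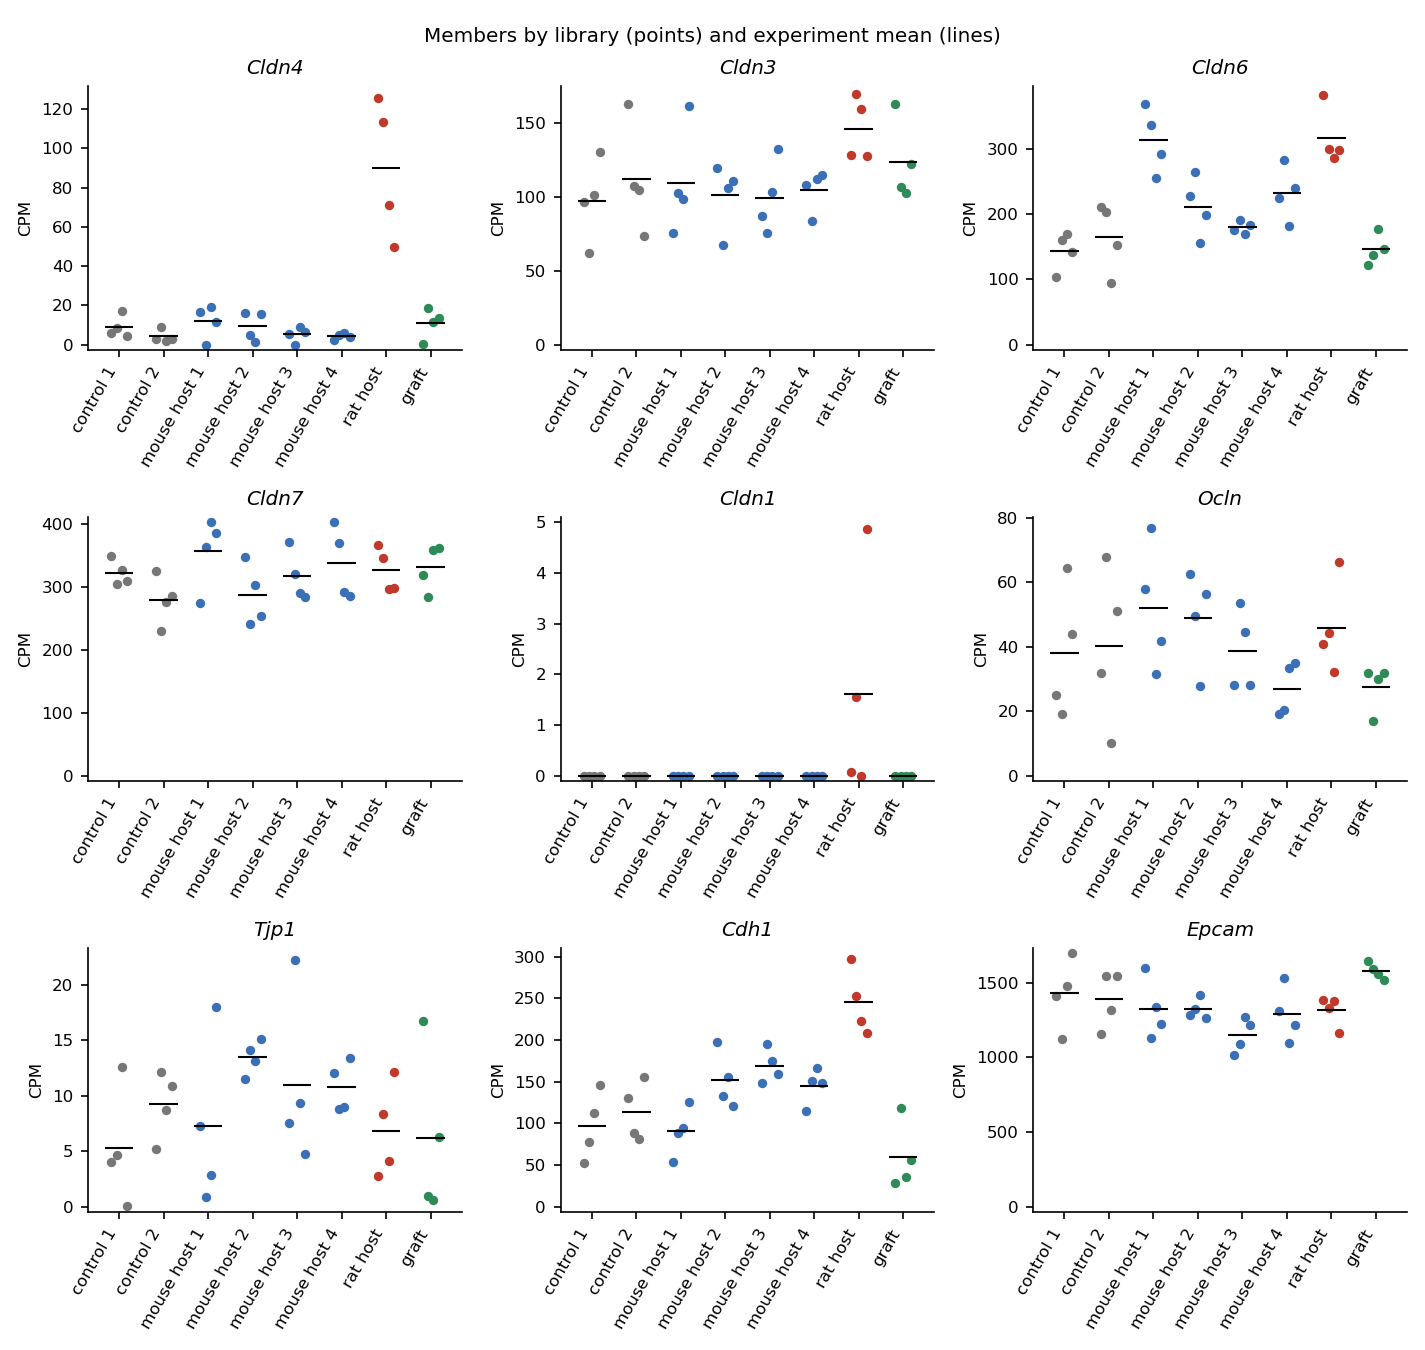
CPM (linear axes from 0) for the 9 genes, with 1 point per library, 4 libraries per experiment, and a line at the experiment's mean. Rat-host points for Cldn4 (49.8 to 125 CPM) and Cdh1 (208 to 297 CPM) sit above every other library, and Cldn1 has reads in the rat host alone.

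Cldn1, a sealing claudin of many epithelia and of skin, was close to silent. It had no read in the 28 libraries outside the rat host, and 1, 22, 0 and 72 reads in the 4 rat-host libraries (0.0729, 1.56, 0 and 4.86 CPM). Its 95 reads thus came almost wholly from 2 libraries, and 1 rat-host library had none. Against a floor of 3 reads over all libraries of an arm, the pooled rat-host level of 1.97 reads per 1000000 was at least 125-fold higher than in the mouse host, at least 114-fold higher than in controls and at least 33.3-fold higher than in the graft. These bounds cover counting error only. Cldn1 passed the filter on low counts through the rat host only, so its place among the genes tested depends on that group.

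In CPM the paralogs Cldn3, Cldn6 and Cldn7 showed no such separation, but this depended on the scale. In TPM the lowest rat-host Cldn6 library, at 345, lay above all others, at most 326. For Cldn3 it was 167 TPM, above the mouse-host maximum of 164 but below the control maximum of 176. Cldn7 overlapped with the mouse host in TPM too. The median rat-host difference of all genes was also higher in TPM, as given below. Cldn3, a sealing claudin that is the nearest relative of Cldn4, held 128, 169, 159 and 127 CPM in the rat host, a mean of 146 ± 21.6 CPM (SD, n = 4). Mouse-host experiments averaged 99.3 to 109 CPM with single libraries from 67.0 to 161 CPM, so the groups overlapped, and the ratio of means was 1.41. Controls averaged 97.2 and 112 CPM and the graft 123 CPM.

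Cldn6, a claudin of embryonic epithelia that is low in most adult tissues, held 382, 300.3, 286 and 298 CPM in the rat host, a mean of 317 ± 43.9 CPM (SD, n = 4). Mouse-host libraries held 368, 336, 255 and 293 CPM in experiment 1, 227, 264, 155 and 198 CPM in experiment 2, 176, 191, 169.8 and 183 CPM in experiment 3, and 224, 283, 182 and 240.0 CPM in experiment 4. Mouse-host experiment 1 thus overlapped with the rat host, while experiments 2, 3 and 4 lay wholly below the lowest rat-host library. Control libraries held 103, 159.8, 169.9 and 142 CPM in experiment 1 and 211, 203, 95.0 and 153 CPM in experiment 2, and graft libraries held 123, 138, 177 and 147 CPM. All 12 of these lay below the lowest rat-host library. The rat-host mean was 1.35-fold the mouse-host mean and 2.05-fold the control mean.

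Cldn7, a claudin of lateral membranes that binds Epcam, had the smallest spread of the claudins over the 32 libraries, an SD of 14.2% of the mean. Experiment means ran from 279 CPM in control experiment 2 to 356 CPM in mouse-host experiment 1, and the rat host, at 326 ± 34.6 CPM (SD, n = 4), stood 1.01-fold against the mouse host. Within experiments the SD was 6.18% to 17.1% of the mean for Cldn7, against 35.2% to 79.3% for Cldn4.

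Setting claudins against each other needs values per transcript length, so the deposited TPM were used. Of 26 claudin genes with a match, the claudin-domain genes not counted, 15 stayed below 1 CPM in every library and 11 had no read at all, among them Cldn11, Cldn14, Cldn16, Cldn18 and Cldn19. In the 28 libraries outside the rat host Cldn7 made up 32.3% of the summed claudin TPM, Cldn6 19.6%, Cldn8 17.8%, Cldn9 15.4% and Cldn3 11.7%. Cldn4 made up 0.53%, between 0 and 1.37% in single libraries. The order below Cldn7 varied among experiments. Cldn6 was above Cldn8 and Cldn9 in each mouse-host experiment. In control experiment 1 Cldn8 (18.7%) and Cldn9 (17.1%) were above Cldn6 (15.0%). In control experiment 2 Cldn9 (19.5%) was above Cldn6 (17.5%), and in the graft Cldn8 (21.5%) was above Cldn6 (14.4%). In the rat host Cldn4 made up 5.35 ± 1.77% (SD, n = 4), with single libraries at 3.31% to 7.001%, and still ranked below Cldn7 at 29.7%, Cldn6 at 28.5%, Cldn3 at 14.5%, Cldn8 at 10.1% and Cldn9 at 9.47%. In the rat host Cldn4 was thus still the lowest of these 6 claudins.

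**Figure D2:**
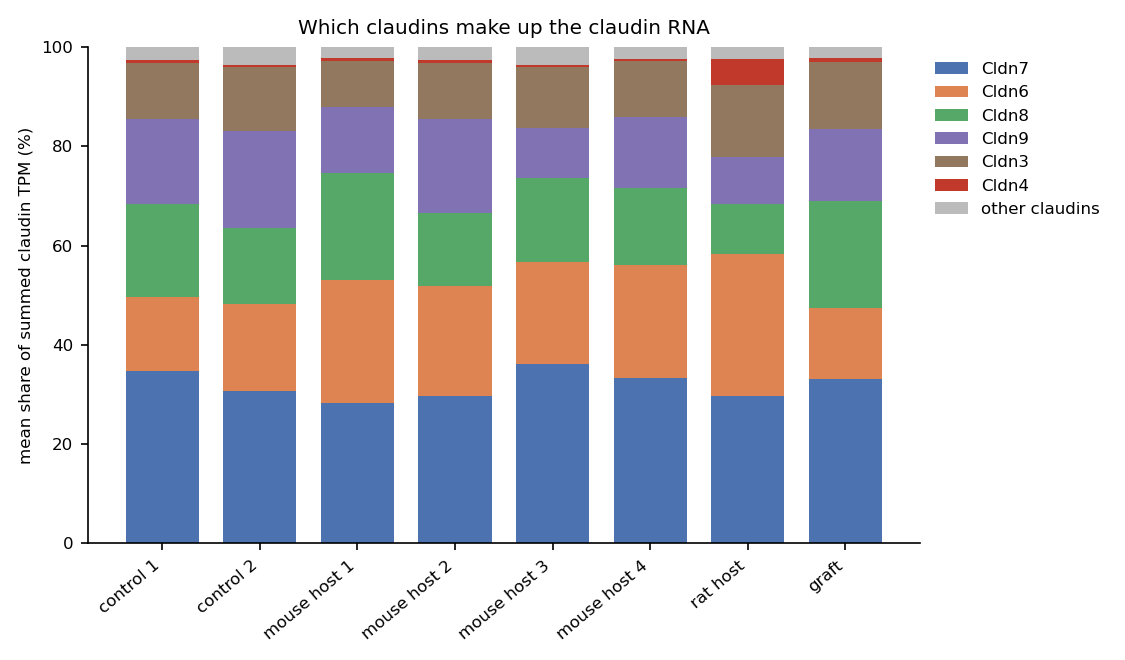
Stacked bars give each claudin's mean share (%) of the summed claudin TPM in each of the 8 experiments (4 libraries each). Cldn4 is a thin band of at most 0.76% outside the rat host and 5.35% in it. The claudins are stacked in the same order in every bar, with Cldn7 and Cldn6 drawn at the base.

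Claudins outside the 9 members were near or below their mouse-host level in the rat host. Cldn8, a claudin of ducts and distal kidney tubules, averaged 228 CPM in the rat host against 375 CPM in the mouse host, and Cldn9, the neighbour of Cldn6 on chromosome 17, averaged 115 against 163 CPM. Cldn12 averaged 33.1 against 27.0 CPM, Cldn23 10.8 against 19.0 CPM, and the claudin-domain gene Cldnd1 93.7 against 83.3 CPM. None of the 23 matched genes of this list had rat-host libraries wholly above or below the mouse-host libraries, and of the 7 tested none was called by edgeR (lowest adjusted p 0.554). With 1.65% and 1.37% of all genes separated and 0.643% called, counts of 0 in a list of this size are close to the share over all genes.

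Summed over claudins, the TPM level was 1340 ± 98.8 in the rat host (SD, n = 4) and 807 to 1170 in the means of the other experiments. The rat-host libraries ran from 1209 to 1432 TPM and mouse-host experiment 1 from 1129 to 1212 TPM, so these groups overlapped. The median of all genes also depends on this scale. On log2(TPM + 1) with limma, it was 0.33 in the rat-host contrast, against -0.03 with TMM-scaled counts. Relative to that median, Cldn4 stood at 3.60 on the TPM scale and 3.62 on the count scale, Cldn3 at 0.56 and 0.56, Cldn6 at 0.51 and 0.52, and Cldn7 at 0.07 and 0.09.

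Epcam was the most abundant member in all 8 experiments, with mean TPM from 747 to 1120.3, followed by Cldn7, Cldn6 and Cldn3 in that order. Libraries of Epcam and Cldn7 did not overlap in TPM in any experiment. Cldn7 overlapped with Cldn6 in 4 experiments, among them the rat host, and Cldn6 with Cldn3 in both controls and the graft. Below them, Cdh1 was 5th, Ocln 6th, Cldn4 7th and Tjp1 8th in each of the 7 experiments other than the rat host. In the rat host Cldn4 (72.9 ± 28.5 TPM) stood ahead of Cdh1 (70.8 ± 10.4 TPM), though their libraries overlapped (SD, n = 4 each). Tjp1 averaged only 0.741 to 2.23 TPM.

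In CPM, E-cadherin was the other member whose rat-host libraries stood apart. Cdh1 held 297, 253, 223 and 208 CPM in the rat host, a mean of 245 ± 39.1 CPM (SD, n = 4), and no other library passed 198 CPM. Mouse-host libraries held 53.2, 88.8, 95.1 and 125 CPM in experiment 1, 198, 133, 156 and 121 CPM in experiment 2, 148, 195, 175 and 159 CPM in experiment 3, and 115, 151, 167 and 149 CPM in experiment 4. Controls held 52.5, 78.0, 113 and 146 CPM in experiment 1 and 131, 88.5, 81.3 and 156 CPM in experiment 2. Mouse-host experiment 1 thus lay in the control range, while the other mouse-host experiments reached higher. Graft libraries held 28.02, 119, 35.7 and 56.6 CPM, with 3 of 4 below every library of mouse-host experiments 2 to 4. The rat-host mean was 1.76-fold the mouse-host mean and 2.32-fold the control mean.

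Epcam, Ocln and Tjp1 did not separate the rat host from the mouse host. Epcam held 1387, 1329, 1380.2 and 1164 CPM in the rat host, 1.04-fold the mouse-host mean of 1270.3 CPM. Ocln averaged 46.0 ± 14.5 CPM in the rat host (SD, n = 4), and its other experiment means ran from 27.0 CPM in mouse-host experiment 4 to 52.1 CPM in mouse-host experiment 1. Tjp1 averaged 6.84 ± 4.26 CPM in the rat host (SD, n = 4) against 10.6 CPM in the mouse host, with libraries from 0.0348 CPM, a single read in control experiment 1, to 22.2 CPM in mouse-host experiment 3. At this depth and with so few cells, Tjp1 shifts of the size of its spread were not detectable.

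Which transcripts carried the reads differed by gene. Cldn1, Cldn3 and Cldn4 have 1 transcript each in the annotation. Transcript Cldn7-201 took 99.6% of Cldn7 reads, Epcam-204 took 96.2% of Epcam reads and Cdh1-201 took 96.1% of Cdh1 reads. Cldn6 reads were split 67.3%, 22.0% and 10.7% over 3 transcripts, and the share of Cldn6-202 was 66.0% in the rat host and 77.3% in the graft. Ocln reads fell mainly on Ocln-205 (49.4%) and Ocln-201 (38.5%), and Tjp1 reads on Tjp1-202 (56.2%) and Tjp1-201 (39.2%). In the graft Tjp1-201 held 1.26% of Tjp1 reads, from 303 reads in all. Within an experiment these shares swung widely for low genes: Tjp1-201 took between 0 and 84.6% in single libraries of mouse-host experiment 1. Reads shared by transcripts of 1 gene are divided by Salmon's estimate, so shares of low genes are uncertain.

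The comparisons that did not choose the genes can be tested. The first asks whether ESC-derived cells in mouse hosts differ from control cells, in an edgeR quasi-likelihood fit on reads summed per experiment. Of 15698 genes, 0.0% were called (0 genes, with 691 at an unadjusted p below 0.05, 119 called by DESeq2 and 42 by limma voom), and no member was called by edgeR or DESeq2, with 1 at an unadjusted p below 0.05. With edgeR, Cldn6 had the largest difference among members, with means of 234 CPM in the mouse host and 155 CPM in controls. Its log2 fold change was 0.60 (SE 0.22, edgeR adjusted p = 0.892). Next were Tjp1 at 0.53 (SE 0.45; 1.42 with limma voom, 0.19 without control experiment 1 and 0.96 without control experiment 2) and Cdh1 at 0.42 (SE 0.24), while Epcam was at -0.15 (SE 0.11). Cldn4 was at 0.16 (SE 0.50), Cldn3 at 0.01 (SE 0.15), Cldn7 at 0.12 (SE 0.14) and Ocln at 0.06 (SE 0.28). The fitted errors were thus smallest for Epcam, Cldn7 and Cldn3 and largest for Cldn4 and Tjp1. With limma voom Cldn4 was at -0.80 (adjusted p = 0.786).

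Grafted cells were compared with mouse-host cells in the same fit, where 0.115% of genes were called (18 genes, 3 higher or 0.0191%, and 15 lower or 0.0956%). No member was called, with 3 at an unadjusted p below 0.05, as were 1940 of all 15698 genes. Cdh1 had the largest member difference, 59.8 CPM in the graft against 139 CPM in the mouse host, a log2 fold change of -1.17 (SE 0.33, edgeR adjusted p = 0.221). It was called by DESeq2 (adjusted p = 0.00815), by edgeR on single libraries taken as independent (adjusted p = 0.0174), and with a replicate block (adjusted p = 0.0193). Over all genes these settings called 1027, 477 and 420 genes, against 18 in the main fit. The graft is 1 experiment, so the single-library settings take its 4 libraries as replicates of the arm, which they are not known to be. It also differs from the mouse hosts in labelled age and, for most of their experiments, in labelled sex. These cannot be told apart from grafting here. Without graft replicate 2, the library at 119 CPM, the log2 fold change was -1.83 (edgeR adjusted p = 0.0701). Cldn6 was at -0.68 (SE 0.29, edgeR adjusted p = 0.401), Ocln at -0.60 (SE 0.38) and Tjp1 at -0.77 (SE 0.61), the last ranging from -2.04 without graft replicate 1 to -0.38 without graft replicate 2. Epcam was at 0.32 (SE 0.14, edgeR adjusted p = 0.399) with all 4 graft libraries between 1519.5 and 1643 CPM, and Cldn7 was at 0.02 (SE 0.18). Cldn4 was at 0.57 (SE 0.61), and at 0.13 without graft replicate 2 and 0.99 without graft replicate 1. Cldn3 was at 0.25 (SE 0.18), and at 0.09 without graft replicate 1. The graft and rat-host contrasts share the mouse-host libraries. Beside the graft, Cdh1 stood at 0.85 and Cldn6 at 0.48 on the log2 scale in the rat-host contrast.

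**Figure D3:**
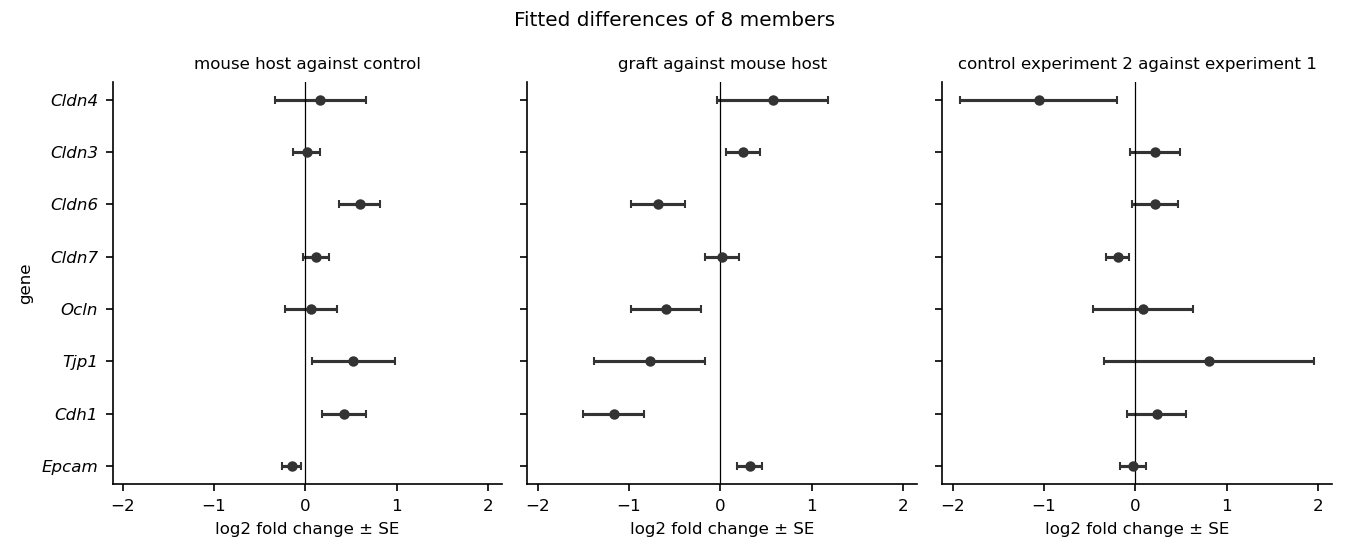
Log2 fold changes (points) with standard errors (bars) from edgeR for 8 genes in 3 comparisons, with Cldn1 left out because it had no read in these groups. Cdh1 in the graft (-1.17) and Cldn6 in the mouse host against control (0.60) lie farthest from 0 relative to their bars, and none of the 24 is called.

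The 2 control experiments, which differ in sex and age, gave no called member with edgeR or DESeq2, and none at an unadjusted p below 0.05. Tested on single libraries, 0.0173% of 11544 genes were called (2 genes, both lower in experiment 2), and 622 were at an unadjusted p below 0.05. Cldn4 was at -1.06 (SE 0.86, edgeR adjusted p = 1.00; -1.74 to -0.54 leaving out single libraries), with means of 9.11 and 4.33 CPM, and Cldn7 at -0.19 (SE 0.13). The other 6 members tested had fitted changes between -0.02 for Epcam and 0.81 for Tjp1. Sex and age cannot be told apart here.

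Differences among the 4 mouse-host experiments were tested with an F-test on single libraries, which called 1.35% of 12195 genes. Cldn6 had means of 313, 211, 180.0 and 232 CPM (edgeR adjusted p = 0.106) and Cdh1 means of 90.6, 152, 169 and 145 CPM (edgeR adjusted p = 0.149). Neither was called, while DESeq2 called both (adjusted p = 0.00148 and 0.0211). Over all genes DESeq2 called 846 in this comparison, against 165 with edgeR. In experiment 1 Cldn6 was highest and Cdh1 lowest of the 4. Cldn3, Cldn4, Cldn7, Epcam, Ocln and Tjp1 had edgeR adjusted p from 0.491 to 0.999.

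Other junction genes were read from 6 lists chosen by function, with 143 genes matched. In the arm comparisons and between the controls edgeR called none of them, 105 to 109 being tested in the arm comparisons and 83 between the controls. Over all genes, 0.0% were called for mouse host against control, 0.115% for the graft, 0.643% for the rat host and 0.0173% between the controls. Counts of 0 in lists of this size are close to these shares. At an unadjusted p below 0.05 there were 7 for mouse host against control, 14 for the graft and 6 between the controls. For the rat host no such count is given, because some list genes, named below, were read only there and entered the test through it. Over all genes tested these counts were 691 and 1940 of 15698, and 622 of 11544 between the controls. Other tools were not read for these lists. Among the mouse-host experiments 4 of 87 were called, against 1.35% of all genes. F11r, which encodes the junctional adhesion molecule JAM-A, averaged 203, 132, 103 and 84.0 CPM in experiments 1 to 4 (edgeR adjusted p = 0.0173). Ctnnd1, which encodes the cadherin-binding p120 catenin, averaged 24.1, 97.0, 61.2 and 63.0 CPM (edgeR adjusted p = 0.0298). Cldn8 averaged 573, 292, 307 and 326 CPM (edgeR adjusted p = 0.0326) and the keratin gene Krt18 averaged 492, 335, 345 and 276 CPM (edgeR adjusted p = 0.0466). Experiment 1 was thus highest in F11r, Cldn8 and Krt18 and lowest in Ctnnd1, and it was also the highest in Cldn6 and the lowest in Cdh1.

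In the rat-host contrast 12 tight junction membrane proteins other than claudins were tested. Crb1 and Igsf5, named after their values were seen, were read in the rat host alone and entered the test only through it, so no count or median is given for this list. Rat-host and mouse-host means were 209 and 131 CPM for F11r, and, chosen after their values were seen, 299 and 234 CPM for Lsr, 60.4 and 37.9 CPM for Cxadr, and 21.3 and 9.13 CPM for Marveld2. Lsr and Marveld2 encode proteins of tricellular junctions, and Cxadr the coxsackie and adenovirus receptor. Jam2, also chosen after its values were seen, averaged 12.9 and 25.5 CPM. All of these overlapped between the groups. Plaque and polarity genes had a median log2 fold change of 0.15 (21 of 32 above 0) and adherens junction genes 0.13 (14 of 22), against -0.03 over all genes with 46.0% above 0. Among surface proteases, inhibitors and keratins, Krt19 was read in the rat host alone, and no count or median is given for that list either.

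**Figure D4:**
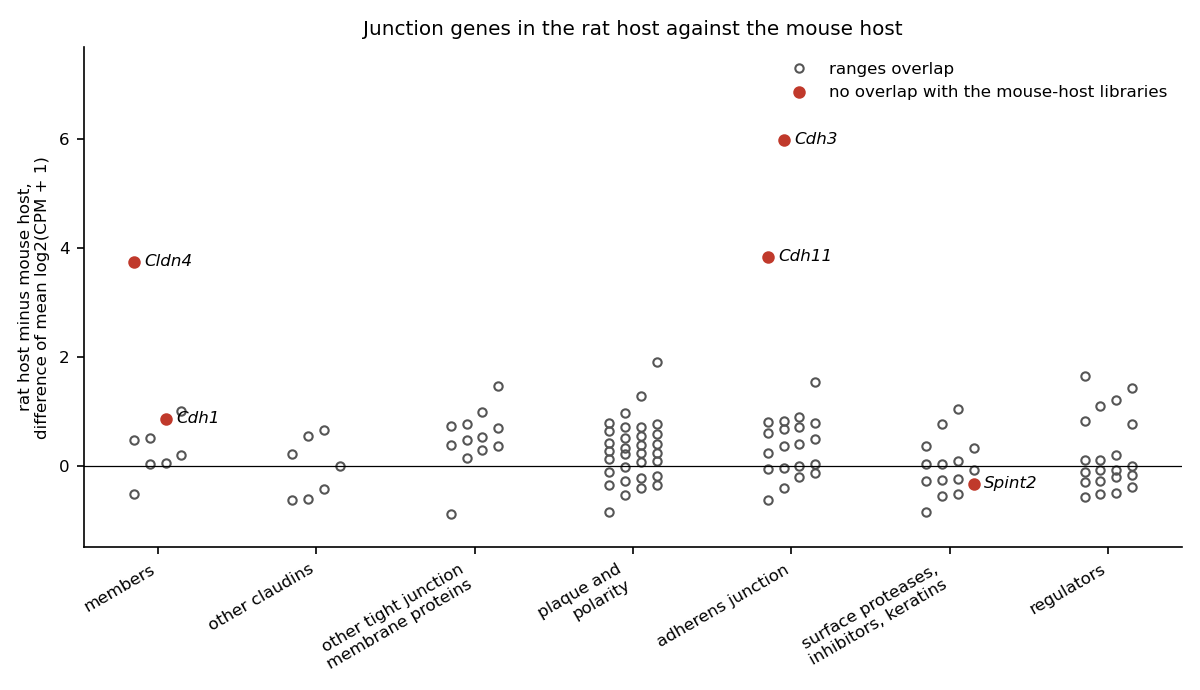
Rat host minus mouse host for each tested gene, as the difference of mean log2(CPM + 1), by list (9, 7, 12, 32, 22, 15 and 21 genes). Filled points are genes whose 4 rat-host libraries all lie above or below the 16 mouse-host libraries: Cldn4, Cdh1, Cdh3, Cdh11 and, below, Spint2.

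Of the 109 list genes tested, 3 had rat-host libraries wholly outside the mouse-host range, a share close to that over all genes (1.65% above and 1.37% below). The 109 include Crb1, Igsf5 and Krt19, which entered the test through the rat host only. Cdh3, the P-cadherin gene and a close relative of Cdh1, held 62.1, 88.7, 87.5 and 65.4 CPM in the rat host. It had at most 4 reads in each of the other 28 libraries except 1, replicate 1 of mouse-host experiment 3, with 70 reads (5.73 CPM). The mouse-host mean was 0.42 CPM, with a fitted log2 fold change of 7.60 (SE 1.57). Cdh11, a cadherin best known from mesenchyme and bone, held 30.6, 8.97, 22.4 and 21.7 CPM in the rat host. It averaged 0.641 CPM in the mouse host, a log2 fold change of 5.11 with SE 1.09. Both cadherins were named for their separation in this contrast, so no p is given for them. The library with 70 Cdh3 reads also held the most Cdh11 outside the rat host, 5.81 CPM. Spint2, an inhibitor of membrane serine proteases that cleave Epcam, was lower in the rat host, at 893 against 1140.3 CPM, with no overlap with the mouse-host libraries.

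**Figure D5:**
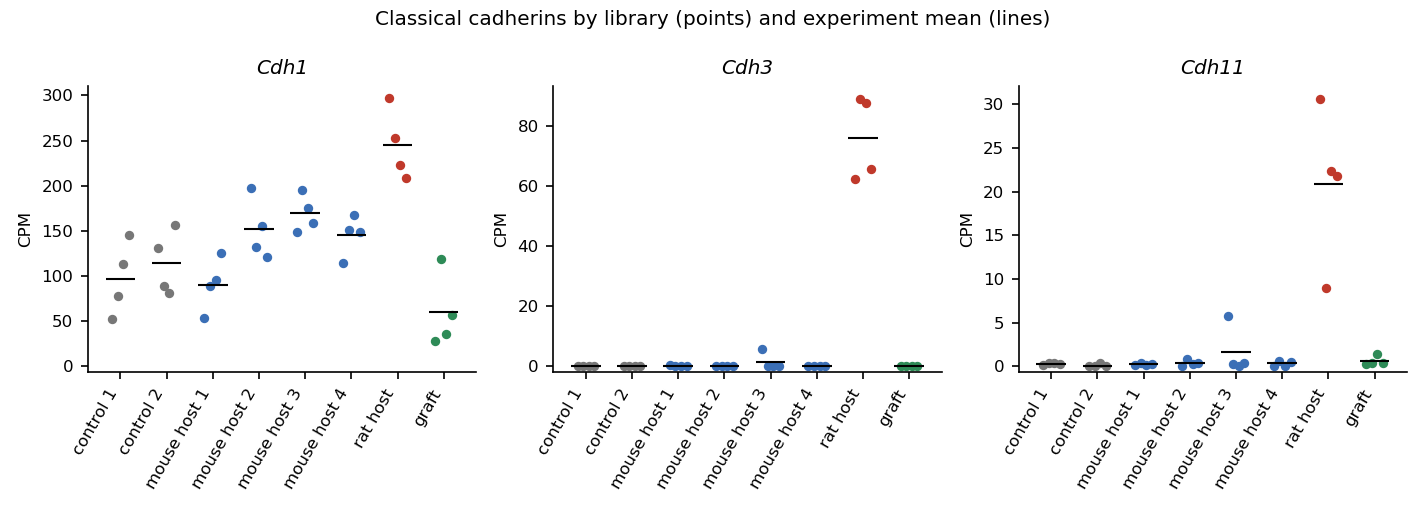
CPM (linear axes from 0) of the cadherin genes Cdh1, Cdh3 and Cdh11 in each library (points) with experiment means (lines). Rat-host Cdh3 lies between 62.1 and 88.7 CPM while all other libraries are at or below 5.73 CPM, and Cdh1 is present in every experiment.

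Marker sums of other cell types are set beside these levels. Fibroblast markers summed to between 224 and 311 CPM in the rat host and between 147 and 3694 CPM elsewhere, with Col1a2 the only one of 8 markers without a read in the rat host. The sum can rest on few markers. In control experiment 1 it was 441 to 514 CPM with 6 of the 8 markers without a read, so Fbln1 and Pdgfra alone carried it. The 8 thymic epithelium markers summed to between 19.0 and 37.4 CPM in the rat host, against 0 to 22.3 CPM elsewhere, and Foxn1, Aire, Cd83 and Krt14 had no read there. The 4 thyroid C cell markers summed to 1.02 to 6.95 CPM against 128 to 527 CPM elsewhere, and the 14 parathyroid markers to 160471 to 180861 CPM against 259390 to 369858 CPM. The mitochondrial share was 1.62% in the rat host and 1.69% to 3.41% in the means of the other experiments. The part of these in the Cldn4, Cdh1 and Cdh3 levels was not tested.

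Transcription factors and RNA-binding proteins known to regulate epithelial junction genes were mostly low. Of 26 matched genes, 10 averaged below 1 CPM in every arm, and 21 were tested with none called. The median log2 fold change in the rat-host contrast was -1.42, with 8 of 21 above 0, and it includes genes without a read in the rat host, whose fitted values depend on the prior count. Among transcription factors other than repressors of Cdh1, Grhl2 averaged 14.9 CPM in the mouse host and 22.7 CPM in the rat host, and Ovol1 6.80 and 9.69 CPM. Ovol2 averaged 4.73 and 3.61 CPM, Foxa1 1.40 and 0.0917 CPM, and Klf4 1.30 and 0.431 CPM. The splicing factor gene Esrp1 averaged 13.3 and 25.8 CPM and the RNA-binding protein gene Rbm47 89.6 and 58.8 CPM. Among repressors of Cdh1, Tcf3 averaged 31.1 CPM in the mouse host and 31.3 CPM in the rat host. In the rat host Snai1, Snai2, Zeb2, Twist1 and Twist2 had no read and Zeb1 averaged 0.18 CPM, against mouse-host means from 0.00589 CPM for Snai2 to 2.80 CPM for Zeb1, and Snai2 averaged 2.17 CPM in controls. These regulators were chosen for naming after their values were seen, and the groups overlapped for each of them.

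Genes with a pattern like that of Cldn4 were sought by the correlation of log2(CPM + 1) over the 32 libraries, among 8716 genes averaging at least 8 CPM. The 6 closest were Tpp1 (r = 0.72), Ddost (0.71), Cdh3 (0.71), Snx6 (0.70), Nt5dc2 (0.69) and Wnt5a (0.68). Cdh3 averaged 0.245 CPM outside the rat host, so it passed the minimum of 8 CPM through the rat host only. Without the rat host, r over the other 28 libraries was 0.39, 0.34, 0.03, 0.24, 0.21 and 0.46 for these genes, so the likeness rests largely on the 4 rat-host libraries. For Epcam the closest were Tmed2 (0.69), Dstn (0.66), Rnf11 (0.65), Snx3 (0.64), Ptges3 (0.64) and Klhl8 (0.63), and these hardly changed without the rat host, at 0.64 to 0.74. The libraries share depth and preparation within an experiment, and the correlations are descriptions with no test.

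The members hardly moved with each other from library to library. Over the 28 pairs without Cldn1, the correlation of deviations from the experiment means ran from -0.27 for Cdh1 with Tjp1 to 0.52 for Cldn6 with Ocln, with a median of 0.01. Cldn4 and its chromosomal neighbour Cldn3 had r = -0.01, and Epcam with Cldn7, whose proteins bind each other, -0.19. The values are descriptions over 32 libraries of few cells each.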

How the data were processed

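RNA was measured in 32 libraries of 10 to 20 picked cells. Per the submitters' processing notes, the authors used Salmon and the build GRCm39; for the program's version and its transcript set, nothing is given in the sources used here. Each deposited table lists an expected count and a TPM per transcript. Gene names came from GENCODE M21 by Ensembl transcript identifier, with 115685 of 116747 transcripts matched; the other 1062 held 0.493% of reads and were left out. Expected counts deposited by the authors were summed per gene and rounded to whole numbers. TPM served for levels between genes.

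Counts were summed per experiment and fitted with edgeR 4.0.16 in R 4.3.3 (quasi-likelihood, TMM scaling, default filter on low counts, Benjamini-Hochberg over all genes, called below 0.05), with 1 coefficient per arm. Arms with a single experiment, rat host and graft, take their spread from the others. Comparisons within an arm used single libraries. CPM in the text are TMM-scaled, and log2 values use a pseudocount of 1 CPM. Scripts were tested on simulated data. Alternatives were DESeq2 1.42.0, limma 3.58.1 (voom and TPM), other scaling, no filter, single libraries, replicate blocks and leaving out each library. Within an experiment, 48 library pairs were checked for duplicates; the lowest chi-square per degree of freedom was 42.3, so none agreed within sampling noise. Fold bounds use a floor of 3 reads over an arm and cover counting error only, since reads carry no molecular identifiers.

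The members and the lists of other junction genes were chosen with earlier results of these data known. Named from the lists were genes called in a test (up to 6 per direction), genes averaging 8 CPM whose rat-host libraries did not overlap with the mouse host (up to 4 per list and direction), and claudins averaging 8 CPM in any experiment; others are named as chosen after their values were seen. Promoters are from RefSeq GRCm38.p6 and start 250 bases before the start site. Arvcf, Cldn25 and Cldn26 are not analysed here.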

Additional observations from a re-analysis of the deposited data

Results flagged for a closer look

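In each experiment the highest and the lowest of 4 libraries were checked for a gap to the next library above Dixon's critical share of the whole range, for each member with any spread. Of 65 sets of 4 libraries, 3 had such a library, and chance marks about 1 in 20. Cldn4 in control experiment 2 was 9.20 CPM in replicate 2 against 2.12 to 3.02 CPM in the others. Cldn6 in the rat host was 382 CPM in replicate 1 against 286 to 300.3 CPM. Ocln in the graft was 16.9 CPM in replicate 2 against 29.97 to 31.9 CPM.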

How the results depend on the processing

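Counts of called genes depended on the tool. For mouse host against control the count was 0 with edgeR, 119 with DESeq2 (100 higher, 19 lower), 14 with single libraries taken as independent, 4 with a replicate block and 42 with limma voom. For graft against mouse host it was 18 with edgeR (3 higher, 15 lower), 1027 with DESeq2, 53 with no filter on low counts, 477 with independent libraries, 420 with the replicate block, 316 with voom (209 higher, 107 lower) and 11 on log2(TPM + 1) (5 higher, 6 lower). For rat host against mouse host it was 101 (34 higher, 67 lower), with 893 in DESeq2, 173 with no filter, 776 with independent libraries, 820 with the replicate block, 1043 with voom (782 higher, 261 lower) and 570 on log2(TPM + 1) (473 higher, 97 lower). Between controls it was 2, with 125 in DESeq2 (83 higher, 42 lower), 0 with the replicate block and 1 on TPM. Among mouse-host experiments it was 165, with 846 in DESeq2 and 276 on TPM. Leaving out 1 library or experiment gave 0 in all 38 cases for mouse host against control, 0 to 77 for the graft, 12 to 127 for the rat host, 0 to 4 between controls and 78 to 202 among mouse-host experiments. The lowest graft counts came without mouse host experiment 2, 3 or 4 and the highest without graft replicate 2, and the lowest rat-host counts without either control experiment; the count between controls was 0 without any 1 library of control experiment 1, and that among mouse-host experiments was 78 without experiment 1 replicate 2, 84 without experiment 1 replicate 4 and 105 without experiment 4 replicate 2. Fewer samples enter these fits, and other causes were not tested.

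Same-numbered libraries did not deviate together (24 mouse-host pairs, correlations of deviations -0.06 to 0.08, and 4 control pairs, -0.02 to 0.02), so the numbers do not pair them. The Cldn4 log2 difference of 3.75 between rat and mouse host was 4.34 with a pseudocount of 0.1 CPM, 3.99 without TMM, 3.93 on TPM and 3.56 to 4.00 leaving out libraries or experiments. Over 32 results for single members, 947 of 992 alternative values kept direction and side of the threshold, 5 were newly called and 40 changed sign, all 40 uncalled. Signs changed for Cldn3 in mouse host against control (-0.0149 with independent libraries, -0.0196 with the replicate block, -0.0774 to 0.115 leaving libraries out), Cldn4 there (-0.80 with voom, -0.27 to 0.79) and Ocln there (-0.12 to 0.26). They also changed for Cldn7 in the graft (-0.0023 with no filter, -0.14 on TPM, -0.0491 to 0.0759), and, between controls, Epcam (0.0106 on TPM, -0.126 to 0.0740), Cldn3 (-0.0182 to 0.392) and Ocln (-0.30 to 0.46). The cause was not tested. Low genes such as Tjp1 and Cldn4 are limited by depth and by the few cells per library.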
